A study of Homo sapiens with 22 samples.

Results

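In a chase of labelled RNA, 9 protein-coding genes lost ground in HEK293T cells with a hairpin against ZNF598 relative to a control hairpin. They are RTN3, MIPEP, METTL5, SAP18, DDX46, MDH1, TAPBP, TBC1D7 and CETN2, beyond RPN1, AK3 and LIPA, the genes with the largest such change. Not all of them fell, since MDH1 and CETN2 rose in both hairpins, but less with the hairpin against ZNF598. The 9 were chosen by the difference in slope over 0 to 10 h between the hairpins, so that difference is described here and not tested again. Each gene stands for 1 row, its protein-coding transcript with the highest mean count over the libraries of 0 to 10 h, and the 9 rows are among 10725 protein-coding genes with a tested transcript.

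The data are BRIC-Seq libraries. Cells take up bromouridine (BrU), a uridine analogue, into new RNA, and after a change to BrU-free medium the labelled RNA that is left is pulled down with an antibody and sequenced. The cells were HEK293T, derived from human embryonic kidney, and carried either a control hairpin (shControl) or a hairpin that targets ZNF598 (shZNF598). The study writes of the ZNF598 hairpin in both the singular and the plural, so the word stands here for either. They were labelled with 150 µM BrU for 24 h, and collected at once (0 h) or after a chase of 2, 4, 6, 10 and 24 h. ZNF598 is a ubiquitin ligase that marks collided ribosomes. The 22 libraries comprise 2 for each hairpin at each time up to 10 h and 1 for each hairpin at 24 h. All groups share the cell line and the label, the labels do not say how many hairpins or clones stand behind a group, and nothing in them says whether replicates came from separate cultures, so the p-values measure the spread between these libraries, which may be technical.

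Total counts ran from 52352359 to 96963584 over the 20 libraries of 0 to 10 h. A member had between 80 counts (TBC1D7) and 7361 counts (MDH1) in any of them. Levels are in CPM, the count scaled to a fixed library total, after TMM scaling, which sets the bulk of transcripts equal between libraries, so a slope of 0 means a transcript that kept pace with that bulk and a positive slope one that rose against it. This is not the share of all labelled reads, since the TMM factors went from 1.11 to 1.16 at 0 h down to 0.723 to 0.755 at 10 h, and with library totals alone the median shControl slope over all transcripts was -0.07 in place of -0.02 log2 units per hour. These are bulk libraries, in which less labelled RNA per cell and fewer cells holding it cannot be told apart. The 2 shControl libraries of 0 h stood apart from each other, with a Pearson r of 0.9745 across transcripts against 0.9866 or more in the other groups. Of 6 markers listed for HEK293T, 5 had a mean of at least 1 CPM (PAX2 did not), with summed levels of 159 to 190 CPM in shControl and 184 to 203 CPM in shZNF598. None of 5 markers of blood, liver, endothelium or muscle did. The ZNF598 transcript itself ran from 3.97 to 8.37 CPM in the shControl libraries of 0 to 10 h and from 0.411 to 1.05 CPM in the shZNF598 libraries, and its level averaged over those times was 0.121-fold (log2 difference -3.05 ± 0.09 SE, edgeR quasi-likelihood adjusted p = 1.17e-18).

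The amount of an mRNA reflects both how fast it is made and how fast it is destroyed. In a chase, transcripts that are degraded slowly come to make up more of the remaining label, and short-lived ones drop out of it. The 9 genes have no common pathway. RTN3 shapes tubules of the endoplasmic reticulum, TAPBP loads peptides onto MHC class I there, MIPEP and MDH1 serve mitochondrial protein maturation and the malate-aspartate shuttle, METTL5 methylates ribosomal RNA, SAP18 and DDX46 act in complexes on pre-mRNA, TBC1D7 is a subunit of the TSC complex, and CETN2 is a centrin.

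In shControl cells all 9 transcripts rose against the bulk as the chase went on, with TMM-scaled slopes of 0.04 to 0.22 log2 units per hour against a median of -0.02 over all 79513 tested transcripts. In shZNF598 cells 5 of the 9 had a negative slope (RTN3, METTL5, SAP18, TAPBP and TBC1D7), MIPEP and DDX46 stayed near their starting level, and MDH1 and CETN2 still rose. The median shZNF598 slope over all tested transcripts was -0.01, so negative slopes were common there. The slopes of both hairpins enter the contrast that chose the genes, so these counts are descriptions. With library totals in place of TMM the shControl slope was positive in 6 of 9 and negative in METTL5 (-0.025), SAP18 (-0.022) and TBC1D7 (-0.008), and the shZNF598 slope was positive in MDH1 and CETN2 alone. The slope difference was negative in all 9 under both scalings. The slope difference, shZNF598 minus shControl, ran from -0.21 to -0.10 log2 units per hour. All 9 are called faster at an adjusted p below 0.05 because they were chosen for it, beside 0.113% of all tested transcripts called faster and 0.14% of the protein-coding genes by 1 row each. In all 9 genes both shZNF598 replicate series had a lower slope than both shControl series, as in 19.6% of all transcripts, a count that the choice fixes. The widest gap between replicate slopes of 1 gene was 0.053 log2 units per hour, in TAPBP, which is also the member nearest the threshold. Its slope difference was -0.10 (adjusted p = 0.0482), beside -0.09 for PGRMC1 just inside (adjusted p = 0.0482), and -0.08 for SLC25A4 and ERG28 just outside (adjusted p = 0.0543 and 0.0562).

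**Figure D1:**
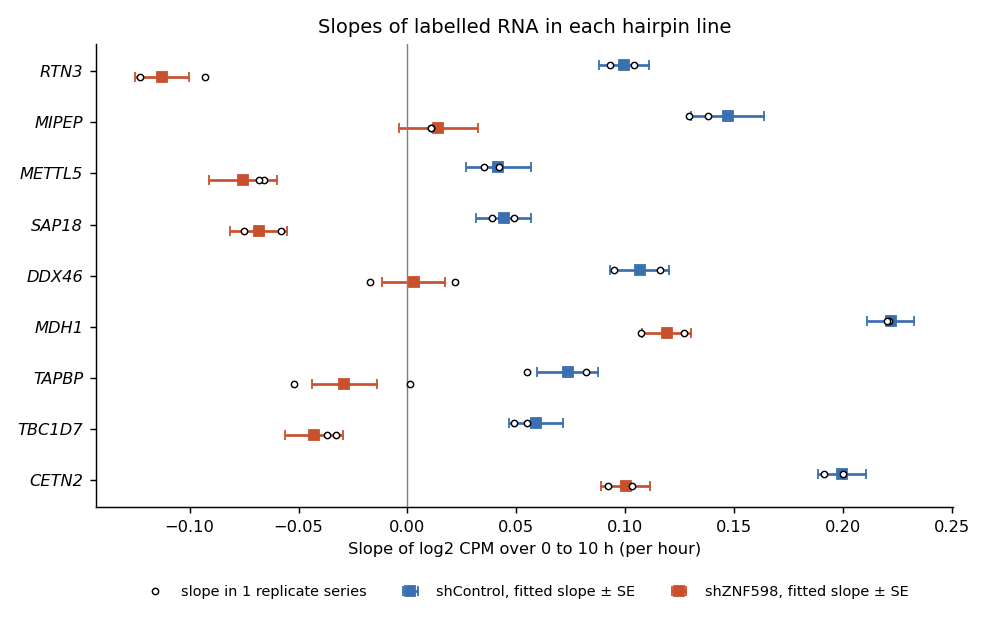
Slope of log2 CPM on chase hours over 0 to 10 h for each gene. Squares with bars are the fitted slope ± SE of each hairpin from 10 libraries, and open circles are the slopes of the 2 replicate series, fitted to log2(CPM + 0.5). With TMM scaling every shControl slope lies right of 0, and in each gene the shZNF598 circles lie left of the shControl circles.

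The difference between hairpins was present in most of the genes when the chase began and widened from there. At 0 h the log2 difference was negative in 8 of 9 genes, with a median of -0.29, and in 7 of 9 both shZNF598 libraries lay below both shControl libraries, as in 15.1% of all transcripts. At 10 h it was negative in 9 of 9 without overlap, against 21.3% of all transcripts without overlap, with a median of -1.43 and a range of -2.81 (RTN3) to -0.78 (CETN2). The medians between were -0.45 at 2 h, -0.66 at 4 h and -1.04 at 6 h. These times entered the choice of the genes, so the widening is a description.

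**Figure D2:**
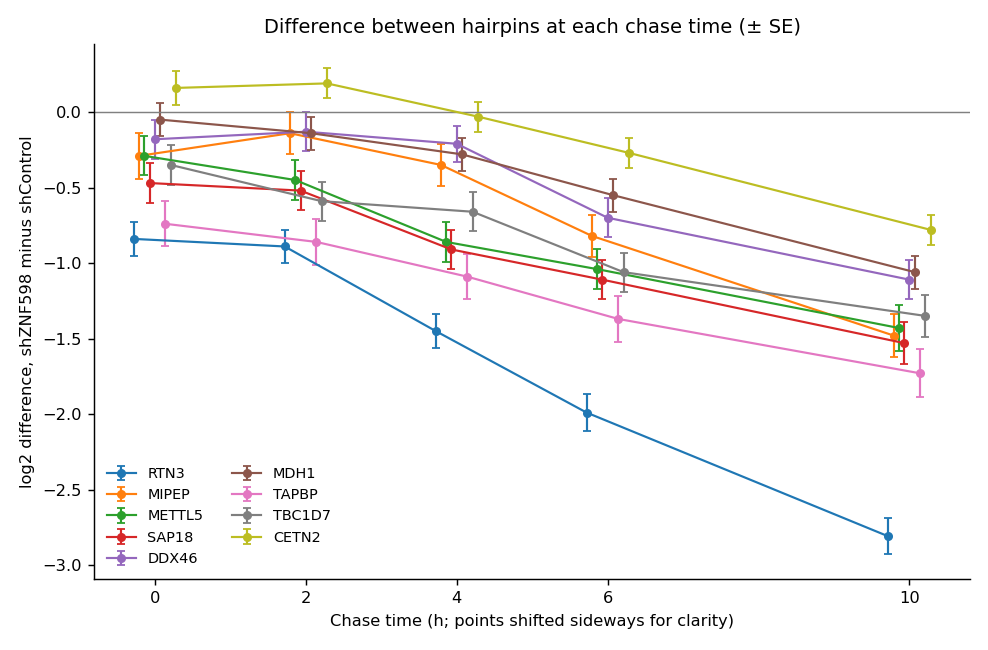
Log2 difference in level, shZNF598 minus shControl, at each chase time up to 10 h for the 9 genes, with bars of 1 SE from a model with 1 mean per group. The lines move downward from a range of -0.84 to 0.16 at 0 h to a range of -2.81 to -0.78 at 10 h, with RTN3 lowest and CETN2 highest at all 5 times.

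The level averaged over the 5 times is a separate contrast, since it weights the times equally and in this balanced design its estimate is orthogonal to the slope difference. It was lower in shZNF598 in 9 of 9 genes (adjusted p below 0.05), where 10.1% of all transcripts were called lower and 12.3% higher. The sizes ran from -1.60 (RTN3) to -0.14 (CETN2) in log2, with a median of -0.80 against 0.02 over all transcripts. A difference that opens during the chase lowers this average too, so both numbers describe the same curves. The mean slope of both hairpins, also outside the choice, was positive and called in 4 of 9 genes, MDH1, CETN2, MIPEP and DDX46, where 36.3% of all transcripts were called positive and 44.8% negative. For RTN3, METTL5, SAP18, TBC1D7 and TAPBP it was not called. With library totals in place of TMM, 7 of 9 were called, DDX46 turned to -0.01 (not called) and TAPBP and TBC1D7 turned to -0.04 and -0.06, and the positive share of all calls went from 44.7% to 23.5%. No departure of the hairpin difference from a straight line over the 5 times was called in any of the 9 genes, nor in any transcript at all (0%; edgeR, 1245 transcripts at an unadjusted p below 0.05, and 22 called by DESeq2). Among the 9, no unadjusted p of that test was below 0.05 and DESeq2 called 0.

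The member transcripts were compared for sequence features that the choice did not use. Their median length was 2381 nt (880 to 5674 nt) against 3575 nt over the 10725 genes, their median coding length 1002 nt against 1422 nt, and their median 3′ UTR 847 nt against 1441 nt. GC content was 44.5% against 47.6%. Of the 9 transcript lengths, 4 lay below the first quartile of all genes and 1 above the last. Words of 7 letters were then counted on the transcript strand in GENCODE sequences. Words held by at least 3 of the 9 genes, a minimum set after the values were seen, were ranked by their ratio of shares. GTCGTTA ranked first of 2433 such words over the whole transcript (3 of 9 genes against 2.54% of all genes). It also ranked first of 362 over the 3′ UTR (3 of 9 against 1.15% of 10661 genes with a 3′ UTR, a ratio of 28.9). A top ratio picked from that many words is high in part by the picking. The holders were RTN3, DDX46 and TAPBP. The 6-letter core GTCGTT occurred in the 3′ UTR of 4 of the 9, METTL5 in addition, against 6.68% of genes, and was the first of the 6-letter words there. Of the words of 8 letters, AAGTCGTT, which holds that core, ranked first over the whole transcript (DDX46, METTL5 and TBC1D7, 1.59% of genes), and TTGTACTA, which does not, ranked first in the 3′ UTR (RTN3, SAP18 and TAPBP, 3.40% of genes).

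The sites are printed because the same word came up in other genes called faster, outside the set for which the words were ranked. Those other genes were called on the same slope contrast in the same libraries. The minimum of genes per word was also set after the values were seen. Finding the word in them is therefore a description and not an independent check. Of the 6 other protein-coding genes called faster by 1 row each, ATP6AP1, LIPA and AK3 hold GTCGTTA in the 3′ UTR, AK3 at 2 places, and RPN1, PGRMC1 and PSMD10 do not hold it. SEPTIN2, SELENOF and FBXO9 were called faster in other rows only. The rows used here for SEPTIN2 and SELENOF lack the word in the 3′ UTR. The ZNF598 transcript holds it in its coding sequence. The capitals mark the word, 5′ to 3′ on the transcript strand, in GRCh38 with GENCODE release 44.
RTN3 3′ UTR, chr11:63758245-63758274, plus strand: aatagttataacGTCGTTActtgtactatg
DDX46 3′ UTR, chr5:134829022-134829051, plus strand: taaagtacacaaGTCGTTAaggggctattc
TAPBP 3′ UTR, chr6:33299930-33299959, minus strand: atcgtgtgagtcGTCGTTAaatgcctgtct
ATP6AP1 3′ UTR, chrX:154436301-154436330, plus strand: tcctgcttggctGTCGTTAtcgttttctgg
LIPA 3′ UTR, chr10:89213963-89213992, minus strand: gagcccgctactGTCGTTAttgatcacatc
AK3 3′ UTR, chr9:4712386-4712415, minus strand: tgtatttattttGTCGTTAagcatactttc
AK3 3′ UTR, chr9:4711591-4711620, minus strand: gccgtcttacaaGTCGTTAttgcctttaaa
ZNF598 coding sequence, chr16:1999638-1999667, minus strand: ccagttgccgtcGTCGTTAatggacacatg

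The word also went with a lower level outside the 9 genes. Of 120 other genes with GTCGTTA in the 3′ UTR, 61 (50.8%) had a lower averaged level in shZNF598 at an adjusted p below 0.05. The share was 11.6% in the 10532 other genes without it and 12.1% in all 10725 genes. The median log2 difference was -0.17 with the word and 0.03 without it. ATP6AP1, LIPA and AK3 are among the 120. Genes with the word had longer 3′ UTRs (median 3377 nt against 1438 nt). Of 2059 genes without it and with a 3′ UTR at least as long as that median, 11.3% were lower. Where the word lay only outside the 3′ UTR, 36 of 149 genes (24.2%) were lower. Among all 15731 words of 7 letters found in the 3′ UTR of at least 100 other genes, GTCGTTA had the highest share of lower genes, ahead of TGTCGTT (30.0%) and AGTCGTT (27.3%), which overlap it, with a median over words of 12.5%. These are descriptions across genes, which are not independent replicates. For the slope difference, 3 of the 120 were called faster (2.5%, ATP6AP1, LIPA and AK3). Among the 10532 other genes without the word it was 3 (0.0285%). The 9 genes, called faster by choice, are in neither group, which widens this contrast. Of them, MIPEP, METTL5, SAP18, MDH1, TBC1D7 and CETN2 lack the word in the 3′ UTR. Outside the 9, 57.5% of holders against 43.3% were negative, and the median was -0.0063 against 0.0039 log2 units per hour. No human mature miRNA of 2370 in the RefSeq table has the complement of the word at bases 2 to 8. Only exact matches at those bases were looked for, and whether a miRNA acts at the word was not tested. No hairpin sequence is given in the sources used here, so whether a guide strand pairs with the word was not tested.

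**Figure D3:**
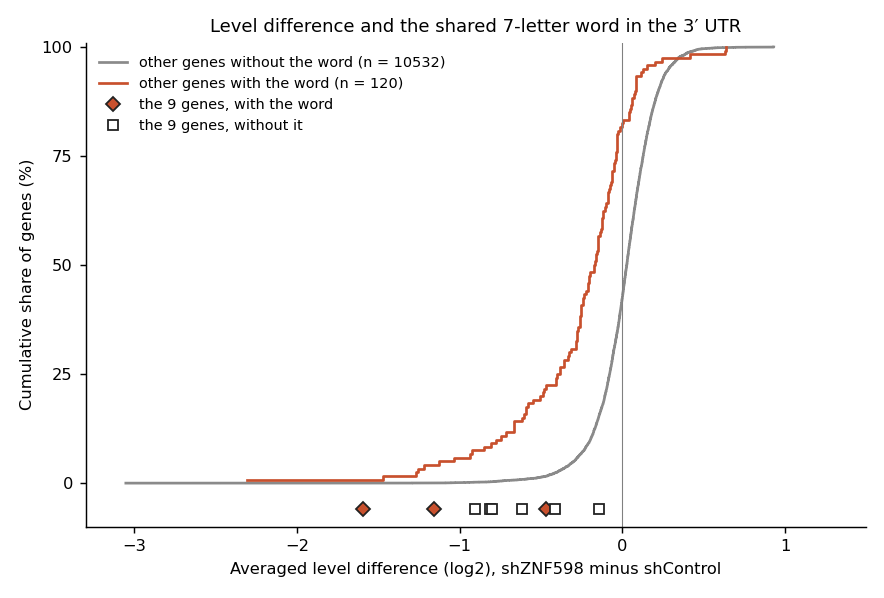
Cumulative share of genes (percent) by averaged level difference in log2, shZNF598 minus shControl, for 120 other genes with the shared 7-letter word in the 3′ UTR and 10532 without it. The 9 genes are drawn below the curves, filled where they hold the word. The curve of the holders lies to the left, with 50.8% of its genes called lower against 11.6%.

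RTN3 encodes a reticulon, a membrane protein that bends the endoplasmic reticulum into tubules. Its transcript (ENST00000377819.10, chr11:63681500-63759882, plus strand, 9 exons, 4917 nt) had the largest slope difference of the 9. In shControl, RTN3 read 36.7 and 31.9 CPM at 0 h, 35.1 and 38.4 at 2 h, 43.8 and 40.7 at 4 h, 49.8 and 49.1 at 6 h, and 66.6 and 67.3 at 10 h. In shZNF598, RTN3 read 18.7 and 19.6 CPM at 0 h, 18.1 and 21.6 at 2 h, 16.0 and 14.9 at 4 h, 13.7 and 11.3 at 6 h, and 9.85 and 9.18 at 10 h. The hairpins were apart at all 5 times, with no overlap, and moved in opposite directions, to 1.95 times the starting level in shControl and 0.497 times in shZNF598. The slopes were 0.10 ± 0.011 and -0.11 ± 0.012 log2 units per hour (SE), and the averaged level was 0.331-fold (adjusted p = 1.36e-17). The site in its 3′ UTR printed above lies in this transcript. All 14 tested RTN3 transcripts were called faster, between -0.22 and -0.20 log2 units per hour, though isoforms can share reads.

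TAPBP (tapasin) bridges the peptide transporter and empty MHC class I molecules. In shControl, TAPBP (ENST00000434618.6, chr6:33299694-33314078, minus strand, 8 exons) read 5.90 and 6.07 CPM at 0 h, 5.75 and 6.14 at 2 h, 6.79 and 6.92 at 4 h, 7.44 and 7.66 at 6 h, and 10.5 and 8.85 at 10 h. In shZNF598, TAPBP read 3.70 and 3.47 CPM at 0 h, 3.30 and 3.24 at 2 h, 3.60 and 2.82 at 4 h, 2.45 and 3.32 at 6 h, and 2.53 and 3.39 at 10 h. The hairpins did not overlap at any time, and a gap of -0.74 ± 0.15 in log2 was there at 0 h. Its averaged level was 0.448-fold (adjusted p = 4.91e-12), the lowest of the 9 after RTN3. The slope in shZNF598 differed between replicate series, -0.052 in replicate 1 and 0.001 in replicate 2, and without replicate 1 or 2 of all groups the slope difference was -0.058 or -0.15. An unnamed long noncoding gene on the opposite strand covers 40.5% of the TAPBP transcript, and the strand setting of the counting is not stated, so reads of both cannot be told apart. Only 1 of its 7 tested transcripts was called faster, and 7 of 7 were lower in level. The call of that transcript was lost under most of the alternatives run, over which its slope difference ran from -0.148 to -0.017.

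METTL5, which methylates an adenosine of 18S ribosomal RNA, had a shControl slope of 0.04 ± 0.015 log2 units per hour, about as shallow as that of SAP18. In shControl, METTL5 (ENST00000409965.5, chr2:169811757-169824925, minus strand) read 6.03 and 6.59 CPM at 0 h, 5.53 and 6.28 at 2 h, 7.26 and 7.19 at 4 h, 7.77 and 9.0 at 6 h, and 7.21 and 8.26 at 10 h. In shZNF598, METTL5 read 4.84 and 5.47 CPM at 0 h, 4.74 and 3.94 at 2 h, 3.60 and 4.38 at 4 h, 3.92 and 4.23 at 6 h, and 2.88 and 2.86 at 10 h. There was no overlap at any time, and the shZNF598 level at 10 h was 0.557 times that at 0 h. Its averaged level was 0.569-fold (adjusted p = 4.78e-10). METTL5 shares 11.6% of this transcript with exons of SSB on the opposite strand.

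SAP18 belongs to the ASAP and PSAP complexes, which join the exon junction complex on spliced mRNA, and to the SIN3 histone deacetylase complex. In shControl, SAP18 (ENST00000382533.8, chr13:21140119-21149097, plus strand) read 16.4 and 22.2 CPM at 0 h, 18.5 and 18.3 at 2 h, 21.4 and 22.6 at 4 h, 22.6 and 23.8 at 6 h, and 23.2 and 26.9 at 10 h. In shZNF598, SAP18 read 14.8 and 13.1 CPM at 0 h, 12.8 and 12.9 at 2 h, 10.9 and 12.5 at 4 h, 10.4 and 11.1 at 6 h, and 9.68 and 7.64 at 10 h. The shControl pair of 0 h spread most, yet both lay above the shZNF598 pair, as at the other 4 times. Slopes were 0.04 ± 0.013 and -0.07 ± 0.013 log2 units per hour, and the averaged level was 0.533-fold (adjusted p = 3.81e-11). Without shControl 0 h replicate 1 or 2 the slope difference was -0.10 or -0.13.

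TBC1D7, the third subunit of the TSC complex that restrains Rheb and mTORC1, had the lowest counts of the 9. In shControl, TBC1D7 (ENST00000379300.8, chr6:13304951-13328537, minus strand) read 3.26 and 3.22 CPM at 0 h, 3.58 and 3.38 at 2 h, 3.49 and 3.27 at 4 h, 4.37 and 4.79 at 6 h, and 4.72 and 4.62 at 10 h. In shZNF598, TBC1D7 read 2.44 and 2.63 CPM at 0 h, 2.23 and 2.39 at 2 h, 2.17 and 2.12 at 4 h, 2.18 and 2.19 at 6 h, and 1.73 and 1.95 at 10 h. The hairpins separated at every time, and replicates lay close together in both. Its averaged level was 0.574-fold (adjusted p = 3.49e-10). Of its 15 tested transcripts, 4 were called faster and 15 were lower in level.

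MIPEP, the mitochondrial intermediate peptidase, trims presequences of imported proteins. In shControl, MIPEP (ENST00000382172.4, chr13:23730189-23889400, minus strand) read 2.98 and 3.39 CPM at 0 h, 3.44 and 3.56 at 2 h, 4.41 and 4.44 at 4 h, 5.90 and 6.88 at 6 h, and 7.61 and 8.71 at 10 h. In shZNF598, MIPEP read 2.81 and 2.39 CPM at 0 h, 3.02 and 3.33 at 2 h, 3.66 and 3.27 at 4 h, 3.29 and 3.88 at 6 h, and 3.10 and 2.71 at 10 h. The pairs did not overlap but lay near each other up to 4 h, and were far apart at 10 h, where the log2 difference was -1.48 ± 0.14. The shZNF598 slope of 0.01 ± 0.018 did not differ from 0 beyond its error. The averaged level was 0.652-fold (adjusted p = 1.17e-07), and the call was lost without replicate 1 or 2 of all groups, with adjusted p = 0.118 at the most.

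DDX46, an RNA helicase of the spliceosome that acts with the U2 snRNP, is the third holder of the word. In shControl, DDX46 (ENST00000452510.7, chr5:134758779-134831121, plus strand, 23 exons) read 22.5 and 19.2 CPM at 0 h, 22.6 and 19.5 at 2 h, 23.8 and 25.4 at 4 h, 30.0 and 26.1 at 6 h, and 42.2 and 42.8 at 10 h. In shZNF598, DDX46 read 18.5 and 18.2 CPM at 0 h, 16.9 and 21.7 at 2 h, 21.9 and 20.5 at 4 h, 18.5 and 16.0 at 6 h, and 21.2 and 18 at 10 h. The pairs overlapped at 2 h and were separate at the other 4 times, and shZNF598 ended at 1.07 times its starting level. The averaged level was 0.723-fold (adjusted p = 1.52e-06), and the call was lost without replicate 1 of all groups (adjusted p = 0.208). Its slope difference over 0 to 4 h was 0.002, so the fitted difference came from the later times.

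MDH1, the cytosolic malate dehydrogenase of the malate-aspartate shuttle, had the steepest slope in both hairpins. In shControl, MDH1 (ENST00000544381.4, chr2:63588609-63607194, plus strand) read 27.6 and 34.0 CPM at 0 h, 37.3 and 36.1 at 2 h, 49.3 and 49.6 at 4 h, 70.5 and 78.5 at 6 h, and 129 and 143 at 10 h. In shZNF598, MDH1 read 29.3 and 30.0 CPM at 0 h, 34.4 and 32.1 at 2 h, 40.0 and 41.7 at 4 h, 49.9 and 51.8 at 6 h, and 70.8 and 59.9 at 10 h. The pairs overlapped at 0 h only, and the level reached 4.42 times its start in shControl and 2.20 times in shZNF598. The averaged level was 0.749-fold (adjusted p = 8.5e-07), and the call was lost without replicate 1 of all groups (adjusted p = 0.0938). MDH1 rose against the bulk in both hairpins under both scalings, with a mean slope of 0.17 ± 0.0078 log2 units per hour (adjusted p = 7.7e-14). Exons of WDPCP on the opposite strand cover 11.6% of the transcript.

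CETN2, a centrin of centrioles that also joins the XPC DNA damage complex and TREX-2, read higher in shZNF598 at the start. In shControl, CETN2 (ENST00000370277.4, chrX:152826994-152830757, minus strand) read 11.9 and 13.3 CPM at 0 h, 13.7 and 13.4 at 2 h, 17.5 and 18.6 at 4 h, 26.1 and 26.2 at 6 h, and 43.4 and 50.2 at 10 h. In shZNF598, CETN2 read 14.3 and 13.9 CPM at 0 h, 15.6 and 15.3 at 2 h, 16.9 and 18.5 at 4 h, 21.8 and 21.7 at 6 h, and 28.7 and 26.0 at 10 h. Both shZNF598 libraries lay above both shControl libraries at 0 and 2 h, the pairs overlapped at 4 h, and shZNF598 lay below at 6 and 10 h. The averaged level was 0.905-fold (adjusted p = 0.0258), the smallest of the 9, and it was the least stable. The adjusted p went above 0.05 without replicate 1 (0.705) or 2 (0.786) of all groups, without the filter on low counts (0.103), and without shZNF598 0 h replicate 2 (0.0561), shControl 2 h replicate 1 (0.0552), shControl 4 h replicate 2 (0.0582), shZNF598 4 h replicate 1 (0.0604) or shControl 10 h replicate 2 (0.0666). CETN2 and MDH1 were the pair most alike over the 20 libraries (Pearson r = 0.98 of log2 CPM, against a median of 0.77 over the 36 pairs), both with the shared gain of CPM over time in them.

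**Figure D4:**
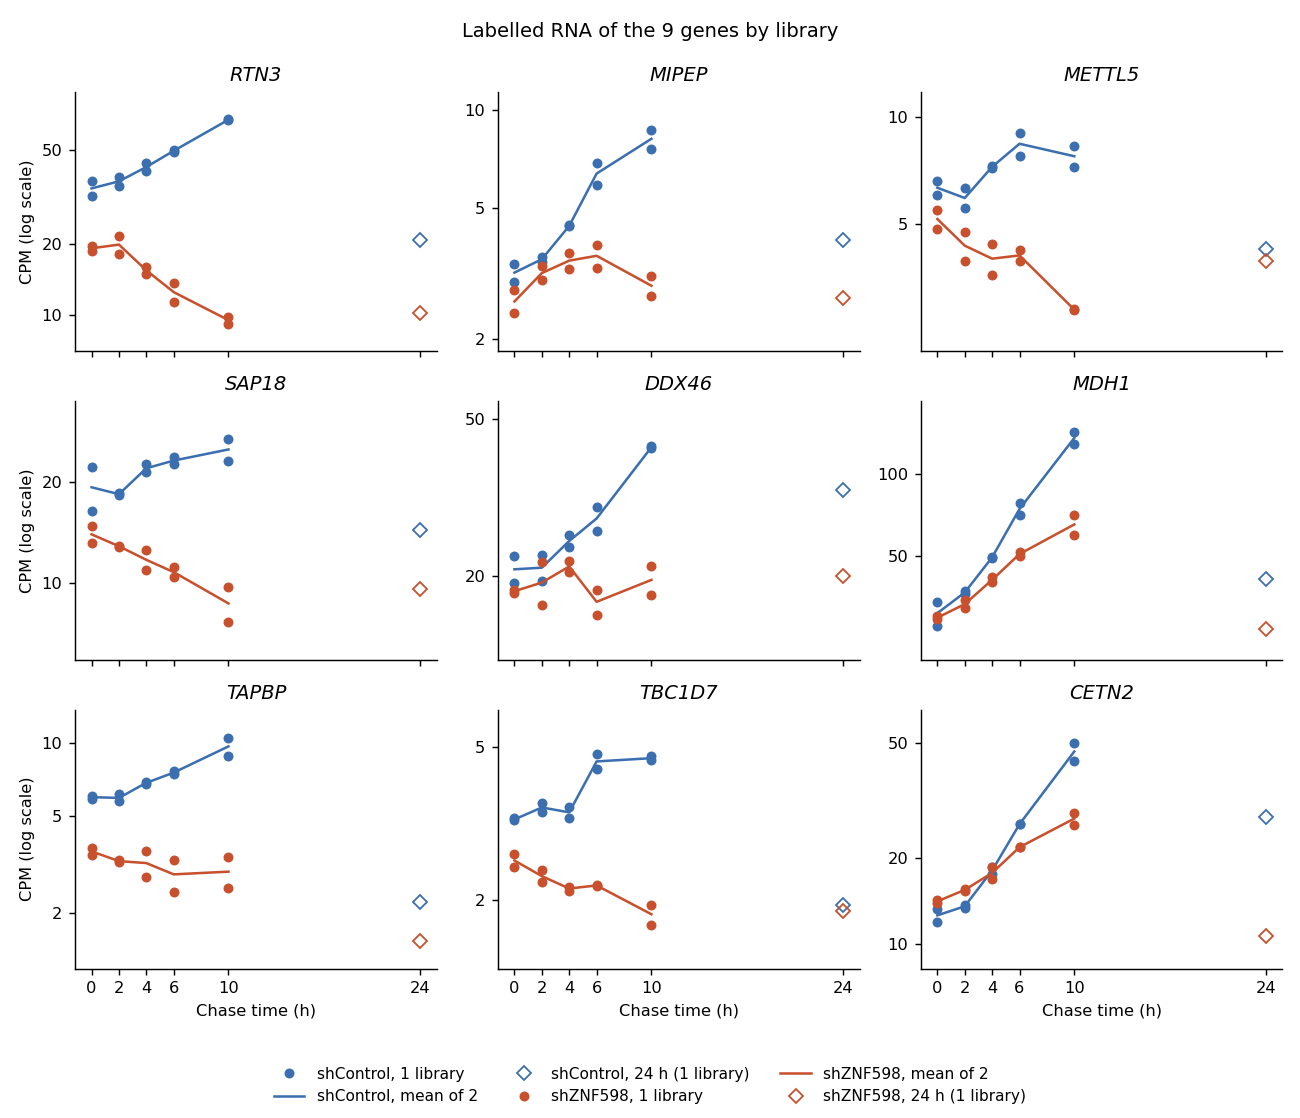
TMM-scaled CPM on a log axis against chase time for the 9 genes. Filled points are single libraries, lines join the means of 2, and open diamonds are the single libraries of 24 h. On this scale shControl means end higher at 10 h than at 0 h in all 9 panels, which library totals turn for METTL5, SAP18 and TBC1D7, while shZNF598 means end lower, nearly level or less far up. The diamonds have TMM factors from a separate run over all 22 libraries.

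At 24 h, which played no part in the choice, there was 1 library for each hairpin, so there is no replicate check and no test. All 9 genes read lower in shZNF598, where 53.5% of all transcripts with counts in shControl did, and 8 of 9 with library totals in place of TMM. The ratio of shZNF598 to shControl ran from 0.388 (CETN2, 95% interval 0.339 to 0.444) to 0.964 (TBC1D7, 0.631 to 1.5). These are exact binomial intervals that cover counting error only. The interval lay below 1 in 20.2% of all those transcripts and in 6 of the 9 genes, RTN3, MIPEP, SAP18, DDX46, MDH1 and CETN2, and included it in METTL5, TAPBP and TBC1D7. In 8 of 9 the 24 h ratio was nearer to 1 than the 10 h ratio, CETN2 being the other. RPN1, AK3, LIPA and the ZNF598 transcript itself moved the same way, ZNF598 from 0.203 to 0.492 and RPN1 from 0.0795 to 0.316. The share over all transcripts was not taken. These 24 h libraries held 21220829 (shControl) and 40157613 (shZNF598) counts, fewer than any library of 0 to 10 h. RTN3 read 20.7 CPM (18.6 to 22.9, exact Poisson interval) in shControl and 10.2 CPM (9.17 to 11.3) in shZNF598, a ratio of 0.493 against 0.142 at 10 h. Its shControl level was 0.309 times that at 10 h, while shZNF598 was at 1.07 times. The ZNF598 transcript in the shZNF598 library of 24 h read 2.36 CPM, 2.43 times its level at 10 h. The 24 h libraries took their TMM factors from all 22 libraries, and the 10 h libraries from the 20 of 0 to 10 h. Ratios of a 24 h level to a 10 h level therefore mix these scalings and are approximate.

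Genes that work with each member were listed by known function, 74 in all, of which 71 had a tested row. None was called for the slope difference by edgeR, where 0.113% of all tested transcripts were called faster. An unadjusted p below 0.05 was found for 4 (BUD23, HDAC1, U2AF1 and ERAP1), and DESeq2 called 1 of the 54 it gave an adjusted p, HDAC1 (-0.04 log2 units per hour, adjusted p = 0.0108). The members were chosen for a large slope difference, so smaller values in their partners follow largely from that choice. The largest slope difference in each list was smaller in size than that of its member, from 12.1% of it (RTN3) to 50.3% (TAPBP) and 58.5% (DDX46). It was 0.03 ± 0.026 for RTN1 among the reticulons and their helpers, 0.04 ± 0.027 for XPNPEP3 among presequence proteases, and -0.04 ± 0.015 for BUD23, an rRNA methyltransferase that, like METTL5, needs TRMT112. HDAC1, a deacetylase of the SIN3 complex with SAP18, had -0.04 ± 0.012, U2AF1, which reads the 3′ splice site, -0.06 ± 0.028, and ME1, the cytosolic malic enzyme, -0.04 ± 0.022. ERAP1, which trims peptides for MHC class I, had -0.05 ± 0.022, RPTOR of mTORC1 0.02 ± 0.034 and SFI1, a centrin-binding protein, 0.03 ± 0.024.

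In averaged level 8 of the 71 partners (11.3%) were lower and 13 (18.3%) were higher, against 10.1% and 12.3% of all transcripts, with a median of 0.04 in log2. The list for MDH1, the malate-aspartate shuttle with ME1 added, which is not part of the shuttle, had the most lower genes, 4 of 7. They were SLC25A11, the oxoglutarate carrier (-0.44 ± 0.06, adjusted p = 1.61e-05), the aspartate-glutamate carriers SLC25A12 (-0.28 ± 0.06, adjusted p = 0.00245) and SLC25A13 (-0.14 ± 0.05, adjusted p = 0.0232), and ME1 (-0.28 ± 0.07, adjusted p = 0.00414). In the same list MDH2, the mitochondrial malate dehydrogenase, was higher (0.20 ± 0.05, adjusted p = 0.00826). These 5 were named after their values were seen. Of the TAPBP partners 2 were lower and 4 higher, and no partner of TBC1D7, CETN2, MIPEP, METTL5 or DDX46 was lower.

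**Figure D5:**
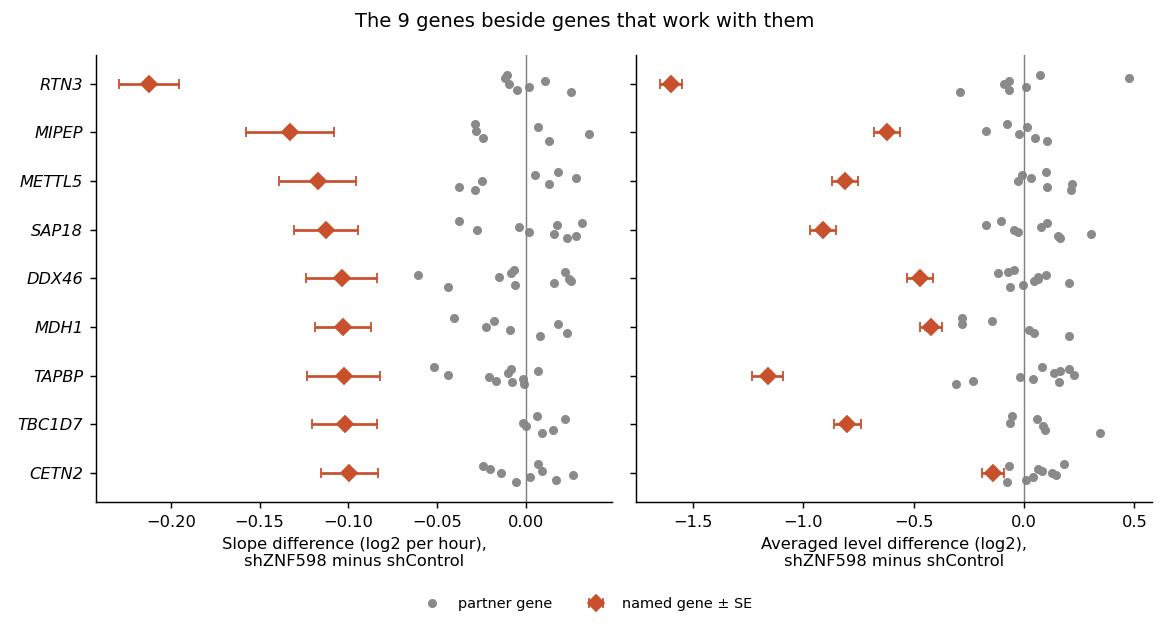
Slope difference (left, log2 per hour) and averaged level difference (right, log2), shZNF598 minus shControl, of the 9 genes (diamonds ± SE) and of their 71 tested partner genes (grey circles). The slope difference of each gene lies left of all circles in its row, which span -0.06 to 0.04. The genes were chosen on that difference, so its place follows largely from the choice.

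The genes most like the mean profile of the 9 over the 20 libraries, among 10716 others, were LIPA (r = 0.992), FBXO9 (0.954), CHMP5 (0.952), RPN1 (0.951) and SLC39A6 (0.948). The points share the time course and the scaling, and the profile carries the pattern for which the 9 were chosen. LIPA, lysosomal acid lipase, and RPN1, a subunit of oligosaccharyltransferase, had slope differences of -0.23 ± 0.016 and -0.26 ± 0.015 log2 units per hour. FBXO9, CHMP5 and SLC39A6 had -0.06 ± 0.014, -0.07 ± 0.016 and -0.10 ± 0.021 in the rows used here, not past the threshold (adjusted p = 0.101, 0.142 and 0.0759), and were lower in averaged level by -0.46, -0.78 and -0.73 (adjusted p = 2.56e-07, 2.52e-11 and 1.7e-10).

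Over all isoforms of the 9 genes, 82 transcripts were tested. All 82 had a negative slope difference, 51 were called faster and 0 slower, and 81 were lower in averaged level and 0 higher. Isoforms of a gene can share reads, and how such reads were counted is not stated, so these are not taken as separate measurements. The 51 make up 56.7% of all transcripts called faster in the series, a share that follows from the choice of the genes and from any shared reads. Of all tested transcripts, 0.113% were called faster and 10.1% lower in averaged level.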

How the data were processed

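Labelled RNA was immunoprecipitated with an anti-BrdU antibody, depleted of rRNA and made into TruSeq stranded libraries. According to the study's methods and the submitters' processing notes (STAR 2.7.0a, CASAVA 1.8), the authors trimmed reads with fastp, removed noncoding RNA, aligned to hg38 with GENCODE release 32, keeping uniquely mapped reads, and counted them with featureCounts. Each deposited file holds raw counts per transcript of 1 library. No spike-in rows were used, so slopes are relative to the bulk of labelled RNA.

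Identifiers were named with GENCODE release 44 (GRCh38), with the version for 92.2% and without it for 98.4% of 227264 rows. For TAPBP, SAP18 and CETN2 the reference held a later version, whose coordinates and sequence are given. Transcripts averaging 1 CPM or more in the 20 libraries of 0-10 h were tested with edgeR 4.0.16 in R 4.3.3 (TMM, quasi-likelihood test, Benjamini-Hochberg over all 79513 transcripts). A model with shRNA, hours and their product gave the slopes, and group means of a second model gave the averaged level and the 3 contrasts for a departure from a straight line. The SE is the estimate divided by the square root of F. DESeq2 1.42.0 was an alternative. Replicate slopes used log2(CPM + 0.5). Intervals at 24 h came from scipy 1.17.1. The functions were tested on simulated data.

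The 9 genes, the partner lists, the word counts and the tests were chosen with earlier results of these data known. Named besides the 9 and their comparison genes were partners called for slope or, if none, the one with the largest slope difference per list, the 5 genes most alike in profile, and the genes nearest the threshold. Replicate pairs differed by more than sampling noise (chi-square per degree of freedom 2.31 to 18.8). Alternatives covered scaling, filters, rows per gene, chase windows, single libraries left out, a replicate block, the choice of test and word length.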

Additional observations from a re-analysis of the deposited data

Results flagged for a closer look

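The slope over 0 to 10 h differed between the hairpins by the interaction of shRNA and hours in all 9 genes, the value for which they were chosen. The differences were -0.212 log2 units per hour for RTN3, -0.133 for MIPEP, -0.117 for METTL5, -0.112 for SAP18, -0.104 for DDX46, -0.103 for both MDH1 and TAPBP, -0.102 for TBC1D7 and -0.099 for CETN2. Of the comparison genes, RPN1 differed by -0.258, AK3 by -0.232 and LIPA by -0.227. Groups of 2 libraries were too small for Dixon's test of a single sample, and the agreement of replicates was compared instead, lowest in shControl at 0 h (r = 0.9745).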

How the results depend on the processing

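The averaged level difference kept its sign in all 9 genes under every alternative run. It was called in 8 or 9 genes under each scaling, filter, row and test setting, and in 5 to 9 when a library, or replicate 1 or replicate 2 of all groups, was left out. The slope difference was less stable in its calls than in its direction. Against 9 genes called, it was called in 9 with RLE scaling, 3 with library totals, 4 without the filter and 5 with 1 row per gene. It was called in 5 over 2-10 h, 1 over 0-6 h, 0 over 0-4 h and 0 over 0-24 h, and in all 5 genes to which DESeq2 gave an adjusted p. Faster calls over all 79513 transcripts were 90 in the main fit, 118 with RLE scaling, 35 with library totals and 556 with DESeq2. They were 46 of 183249 without the filter and 10 of 15093 with 1 row per gene. By chase window they were 52 over 2-10 h, 22 over 0-6 h, and 0 over both 0-4 h and 0-24 h. The counts among the 9 genes follow in part how many calls each setting makes. Leaving out libraries gave 0 to 9 genes. Single libraries that took the count below 6 were shZNF598 0 h replicate 1 (4) and replicate 2 (5), shControl 2 h replicate 2 (5), shControl 10 h replicate 2 (1) and shZNF598 10 h replicate 1 (4) and replicate 2 (3), and without replicate 1 or replicate 2 of all groups 0 and 1 were called. The sign turned only for DDX46 over 0-4 h (0.002). The mean slope was called in 4 genes, in 7 with library totals, in 2 over 0-24 h and in 4 to 5 with a library left out. Its sign turned for RTN3 with RLE scaling (0.004), DESeq2 (0.004) and 1 row per gene (0.001), METTL5 over 0-6 h (0.008), DDX46 with library totals (-0.010), TAPBP with library totals (-0.042), over 0-4 h (-0.001) and over 0-24 h (-0.038), and TBC1D7 with library totals (-0.056), over 0-4 h (-0.029) and over 0-24 h (-0.017). Causes were not tested. Partner genes called stayed at 0, except for 1 with DESeq2. Library totals for 24 h, the minimum of 3 genes per word and the group of long 3′ UTRs were chosen after seeing the data.

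Same-numbered replicates of the hairpins did not deviate together at all times (r from -0.197 to 0.325 over the 5 times). With a replicate block, 8 genes were called for slope, 9 for averaged level and 4 for mean slope, and 0 for a departure from a straight line, with 0 partner genes. Over all 79513 transcripts that block gave 78 called faster, 8337 lower in averaged level and 3 for a departure from a straight line. For mean slope it gave 28805 positive and 35577 negative.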
